A study of Mus musculus with 8 samples.

Results

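The level of 10 genes that mark epithelial or mesenchymal cells was followed across 8 RNA-sequencing libraries of mouse embryonic stem cells. The genes were chosen by symbol and Ensembl identifier out of 43346 genes listed for each library. There were 6 epithelial genes (Cdh1, Epcam, Cldn4, Cldn6, Cldn7 and Tjp1) and 4 mesenchymal genes (Cdh2, Vim, Zeb1 and Snai1). All 10 passed the filter on low counts and were among the 18055 genes tested. The cells formed 4 groups of 2 libraries each. The TRIM71 knockout carries TRIM71-/-, a loss of both copies of an RNA-binding protein. In the Mbnl1 3'UTR mutant both copies of Mbnl1, a splicing factor gene, carry an altered 3'UTR. In Mbnl1 overexpression, cells hold a stably transfected MBNL1::T2A::Puromycin construct. Wild type is the parental line. All 4 groups share the 129xC57BL/6 background and the Rosa26Cre-ERT2/BirA-V5 genotype. All were grown on gelatin in medium with serum and LIF, a cytokine that keeps the cells pluripotent. Whether the 2 libraries of a group stand for separate cultures or clones is not stated in the labels. The p-values therefore measure only the spread between these libraries, and clone and genotype cannot be told apart.

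Epithelial cells hold together through adherens junctions, built on E-cadherin, and through tight junctions, built on claudins and their scaffold proteins. In an epithelial-mesenchymal transition, transcriptional repressors of the Snail and Zeb families shut down these genes, and N-cadherin and vimentin take their place. Mouse embryonic stem cells grow as compact colonies held together by E-cadherin, which cells of the embryo lose as they pass through the primitive streak.

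Snail and Zeb proteins bind E-boxes, of which CAGGTG is the classical form, read as CACCTG on the other strand. RefSeq promoters (GRCm38.p6), which were searched for it, reach from 250 bases before to 50 bases after a start site. Of 32851 such promoters, 6640 (20.2%) held CAGGTG on either strand. Promoters of 7 of the 10 genes were searched, 8 promoters in all because Cldn7 has a pair of start sites, and those of Cdh1, Cdh2 and Zeb1 were not analysed here. Epcam, Cldn4, Cldn6, Cldn7 (its downstream start site) and Snai1 held 9 matches in all, and Tjp1, Vim and the upstream promoter of Cldn7 held none. The match nearest before the start site is shown for each of the 5 genes, with the 30 bases around it, in the direction of the gene and with the motif in capitals:
Epcam, chr17:87635948-87635977, plus strand, motif from position -19: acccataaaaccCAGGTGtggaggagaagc
Cldn4, chr5:134946931-134946960, minus strand, motif from position -14: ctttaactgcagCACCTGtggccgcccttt
Cldn6, chr17:23679260-23679289, plus strand, motif from position -93: gggaaacgcacgCAGGTGgctatcgccgca
Cldn7, chr11:69965352-69965381, plus strand, motif from position -57: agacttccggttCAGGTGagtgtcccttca
Snai1, chr2:167538057-167538086, plus strand, motif from position -126: gcagcccaggcgCACCTGctccggtctcag
Positions count back from the start site to the first base of the motif. A match is a stretch of letters and was not tested as a binding site.

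Each library held 75056306 to 86508533 counts. A count of 3 corresponds to 0.0347 to 0.04 CPM (counts scaled to the size of the library), and this limit covers counting error only. Trim71 was at 101 and 105 CPM in the knockout libraries, against 630 and 628 CPM in the wild-type libraries. Mbnl1 was at 48.8 and 50.9 CPM in the knockout, 28.6 and 27.4 CPM in the mutant, 193 and 195 CPM in overexpression, and 25.9 and 26.1 CPM in wild type. Of 8 pluripotency markers, all 8 were at 1 CPM or more in every group, with summed levels of 5218 to 5238 CPM in the knockout, 4709 to 4711 CPM in the mutant, 4797 to 4858 CPM in overexpression, and 4177 to 4185 CPM in wild type. Nanog was at 604 and 594 CPM in the knockout, against 318 and 307 CPM in wild type. Pou5f1 was at 1165 and 1172 CPM in the knockout, against 1165 and 1153 CPM in wild type. Dppa5a was above both wild-type libraries in each altered group. Of 8 primitive endoderm markers, 3 were at 1 CPM or more in the knockout, 8 in the mutant, 7 under overexpression and 8 in wild type. Their summed levels were 24.9 to 25.9 CPM in the knockout, 62.1 to 74.7 CPM in the mutant, 27 to 33.7 CPM in overexpression, and 45.4 to 51.8 CPM in wild type. In the knockout most of that sum was Foxa2, at 17.8 and 18 CPM, against 4.26 and 2.94 CPM in wild type, while Gata4 was at 0.652 and 0.765 CPM in the knockout, against 7.99 and 7.97 CPM in wild type. Of 8 trophoblast markers, 5, 4, 4 and 5 were at 1 CPM or more in the same order, with Elf5 at 0 in the mutant and wild-type libraries. Their summed levels were 121 CPM in both knockout libraries, 59.1 to 65.7 CPM in the mutant, 79.1 to 80.5 CPM in overexpression, and 113 to 115 CPM in wild type. Within that sum Tfap2c was higher in the knockout, at 54 and 55.2 CPM against 29.8 and 27 CPM in wild type. Krt8 and Krt18 were lower, with Krt18 at 20.1 and 18.9 CPM in the knockout against 29 and 32.1 CPM in wild type. Both of these cell types are epithelial, and their part in the results on the epithelial genes was not tested. In RNA from whole cultures, fewer cells of a type and less RNA per cell cannot be told apart.

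Levels of different genes were compared as CPM per kb of exon. By group mean, Cdh1 stood first, Epcam second and Cdh2 last in every group. In the mutant the Cdh2 libraries (0.733 and 0.732 CPM per kb) lay within the Snai1 pair (0.873 and 0.688 CPM per kb). In wild type the order was Cdh1 at 77.5 ± 5.8 CPM per kb (SD, n = 2), Epcam at 55.8, Cldn4 at 22.9, Tjp1 at 20.6, Vim at 13.4, Cldn6 at 13.0, Cldn7 at 3.01, Zeb1 at 1.71, Snai1 at 0.879 and Cdh2 at 0.80 CPM per kb. Vim at 13.4 ± 0.65 and Cldn6 at 13.0 ± 0.20 CPM per kb (SD, n = 2 each) were the only neighbours in that order whose wild-type libraries overlapped. On this scale Cdh1 lay above 96.5% and Epcam above 94.9% of 17909 tested genes in wild type, and Vim above 79.3%. In the knockout Cdh2 lay above 25.4% of genes, in the mutant above 34.6%, in overexpression above 15.1%, and in wild type above 35.2%. Lengths taken from the longest transcript in place of all exons moved 15 of 40 ranks. Cdh1 and Epcam stayed first and second, but Cdh2 then stood at rank 9 in the mutant and in wild type, with Snai1 at rank 10.

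The ratio of E-cadherin to N-cadherin mRNA was highest in overexpression, where Cdh1 itself was at its lowest. Cdh1 was at 304 and 311 CPM there, against 373 and 336 CPM in wild type. Cdh2 was at 1.10 and 1.22 CPM, against 6.65 and 6.25 CPM in wild type. Per kb of exon, Cdh1 exceeded Cdh2 229 and 246 times in the knockout libraries, 99.4 and 96.2 times in the mutant, 485 and 450 times in overexpression, and 98.9 and 94.8 times in wild type. The knockout and overexpression libraries lay above all the others, and the mutant and wild-type libraries overlapped. With lengths of the longest transcript the ratios were 142 and 152 for knockout libraries, 61.6 and 59.6 for mutant libraries, 301 and 279 for overexpression, and 61.3 and 58.8 for wild type.

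**Figure D1:**
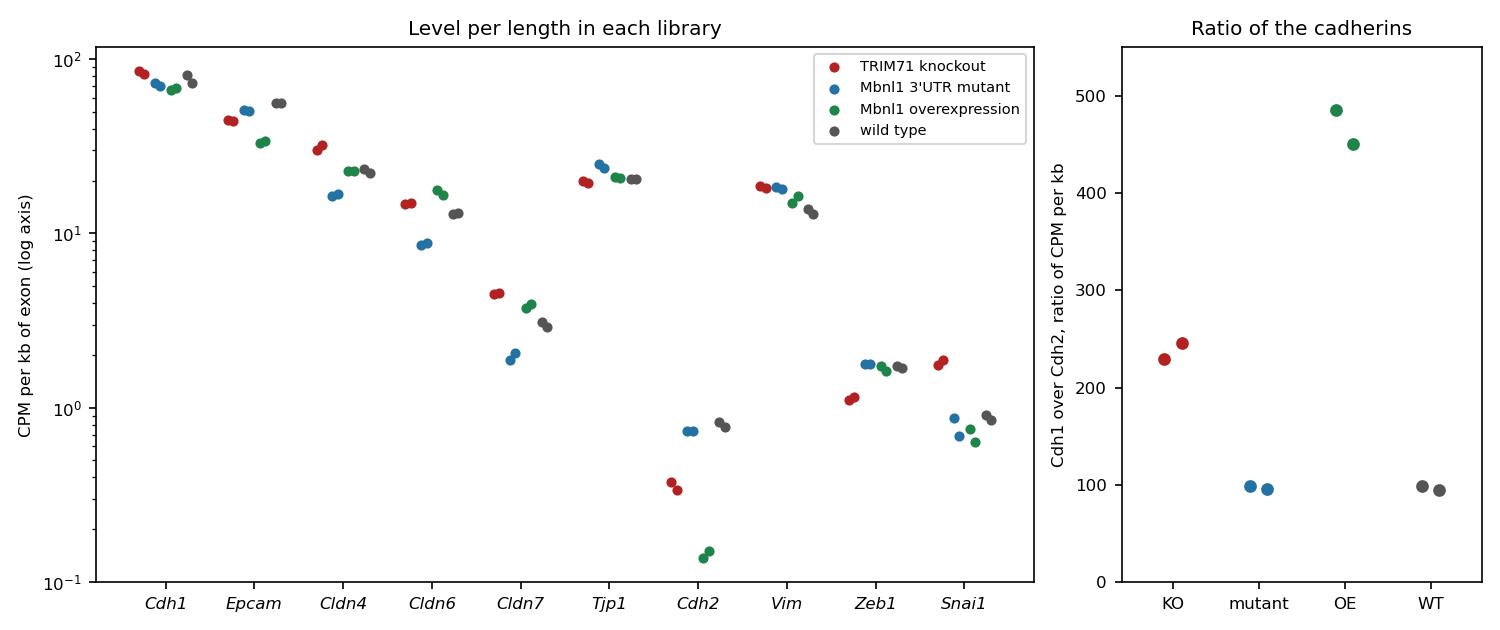
Levels per length of the 10 adhesion genes in each library, in CPM per kb of exon on a log axis, with 1 point per library and colours for the groups, and the ratio of Cdh1 to Cdh2 in each library on a linear axis. By group mean, Cdh1 and Epcam were the highest in every group and Cdh2 the lowest. The ratio reached 485 and 450 in overexpression, against 98.9 and 94.8 in wild type. Both Cdh1 and Cdh2 were lower in overexpression than in wild type, and Cdh2 fell by more.

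The genes did not move as 1 epithelial and 1 mesenchymal block. Relative to wild type, the N-cadherin gene Cdh2 fell in the knockout and in overexpression, the claudin genes rose in the knockout and fell in the mutant, Epcam fell and Vim rose in all 3 altered groups, and Snai1 rose and Zeb1 fell in the knockout. In the knockout against wild type 9 of the 10 genes were called, 6 higher and 3 lower, where 45.1% of all tested genes were called at an adjusted p under 0.05 (24.2% higher and 20.9% lower). Of the epithelial genes 4 were higher and 1 lower, and of the mesenchymal genes 2 were higher and 2 lower. In the mutant 6 of 10 were called, 2 higher (Tjp1 and Vim) and 4 lower, where 16.0% of all genes were called (8.32% higher and 7.69% lower). In overexpression 6 of 10 were called, 3 higher and 3 lower, where 54.8% of all genes were called (27.7% higher and 27.2% lower). The knockout and wild-type libraries did not overlap for 10 genes, as for 73.3% of all tested genes. For the mutant this held for 9 genes (51.9% of all genes), and for overexpression for 8 (76.5%). The 10 genes had a median log2 change of 0.15 in the knockout, -0.14 in the mutant and -0.01 under overexpression, beside -0.01 for all tested genes in each of these comparisons. These 3 comparisons share the wild-type libraries.

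**Figure D2:**
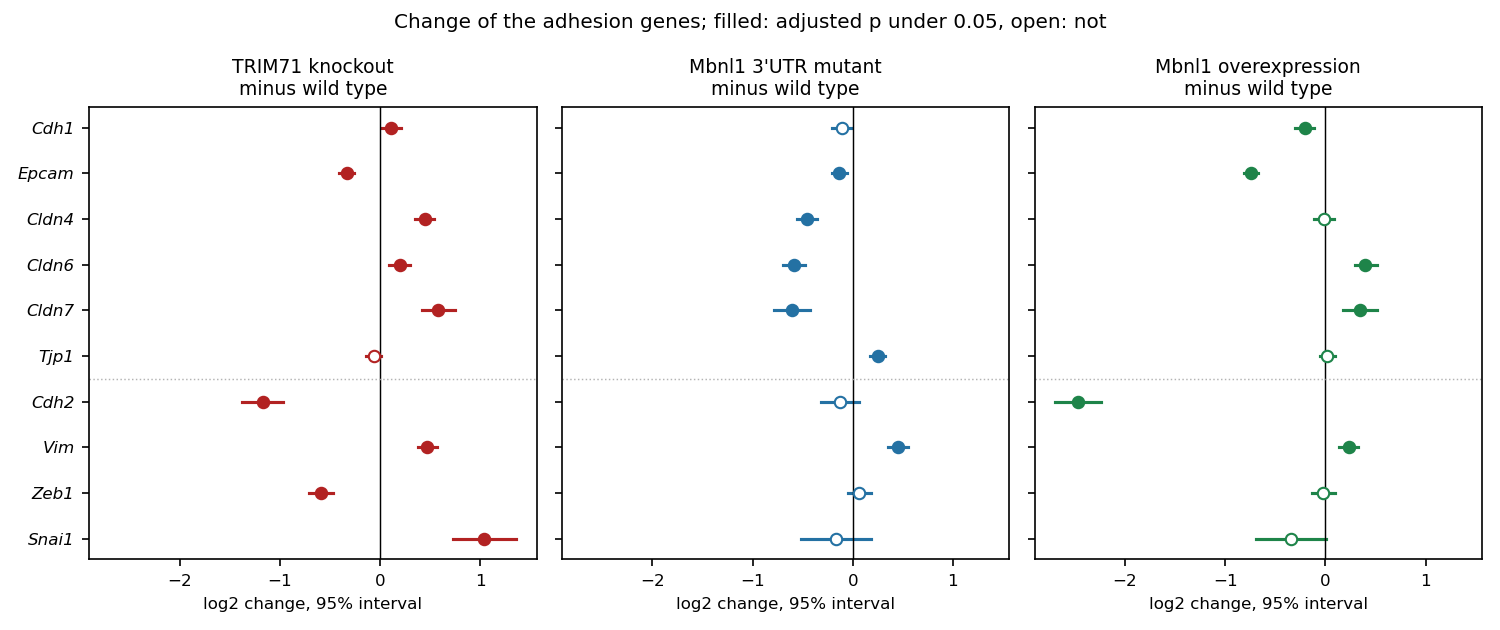
Log2 change of each adhesion gene in the 3 altered groups relative to wild type, with 95% intervals. Filled points passed an adjusted p of 0.05 and open points did not, and a dotted line parts the epithelial genes above from the mesenchymal genes below. Cdh2 lay farthest from 0 in the knockout (-1.17) and in overexpression (-2.47), and the 3 claudins lay left of 0 in the mutant.

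Cdh1 encodes E-cadherin, the calcium-dependent adhesion molecule of adherens junctions (ENSMUSG00000000303.8, chr8:106603351-106670246, plus strand, mm10). It had 389.7 and 378 CPM in the knockout libraries, 333 and 322 CPM in the mutant, 304 and 311 CPM in overexpression, and 373 and 336 CPM in wild type. Both overexpression libraries were the lowest of the 8, and the wild-type pair was the most spread. Cdh1 fell 1.15-fold in overexpression (log2 change -0.20, SE 0.043, adjusted p = 0.000675 by edgeR's quasi-likelihood test with Benjamini-Hochberg adjustment, which also gave the other adjusted p-values). In the knockout it was called higher by 1.08-fold (log2 change 0.11, 95% interval 0.02 to 0.21, adjusted p = 0.0405), a call that ended without wild-type replicate 2 (log2 change 0.04, adjusted p = 0.49) and without either knockout library (adjusted p = 0.192 and 0.0785). Over all alternatives tried its adjusted p ran over 0.00217 to 0.49. In the mutant the log2 change of -0.11 (95% interval -0.21 to -0.02) missed the threshold at an adjusted p of 0.0904 and passed it without wild-type replicate 2 (-0.19, adjusted p = 0.00737), with a range of 0.00737 to 0.688 over the alternatives.

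Epcam encodes a membrane glycoprotein of epithelial and pluripotent cells that takes part in adhesion between like cells (ENSMUSG00000045394.8, chr17:87635979-87651129, plus strand). It had 97.9 and 96.6 CPM in the knockout libraries, 112 and 110.4 CPM in the mutant, 72.2 and 74.3 CPM in overexpression, and 122.5 and 122.3 CPM in wild type. The 4 groups did not overlap, and both wild-type libraries lay above all the others. Epcam fell in each altered group relative to wild type, by 1.67-fold in overexpression (log2 change -0.74, SE 0.035, adjusted p = 8.67e-12), 1.26-fold in the knockout (-0.33, SE 0.035, adjusted p = 5.16e-07) and 1.1-fold in the mutant (-0.14, SE 0.035, adjusted p = 0.0106). The mutant's call ended when only its own and the wild-type libraries were fitted (adjusted p = 0.0606, in a range of 0.00459 to 0.0606 over the alternatives).

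The claudins are the membrane proteins that seal tight junctions. Cldn4 (ENSMUSG00000047501.2, chr5:134945119-134946934, minus strand) had 54.7 and 58.8 CPM in the knockout, 29.9 and 30.6 CPM in the mutant, 41.4 and 41.4 CPM in overexpression, and 42.6 and 40.6 CPM in wild type. The knockout pair was highest and the mutant pair lowest, while overexpression lay within the wild-type pair. Cldn4 rose 1.36-fold in the knockout (log2 change 0.45, SE 0.045, adjusted p = 3.54e-07) and fell 1.38-fold in the mutant (-0.46, SE 0.047, adjusted p = 1.93e-06). In overexpression its log2 change was -0.01, with a 95% interval of -0.11 to 0.09 (adjusted p = 0.886).

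Cldn6 (ENSMUSG00000023906.2, chr17:23679249-23682446, plus strand), a claudin of embryonic epithelia, had 25.5 and 25.8 CPM in the knockout, 14.7 and 15.1 CPM in the mutant, 30.5 and 28.6 CPM in overexpression, and 22.1 and 22.6 CPM in wild type. The groups did not overlap, in the order overexpression, knockout, wild type and mutant from high to low. Cldn6 rose 1.32-fold in overexpression (log2 change 0.40, SE 0.05, adjusted p = 2.08e-06) and 1.15-fold in the knockout (0.20, SE 0.05, adjusted p = 0.00347), and fell 1.5-fold in the mutant (-0.59, SE 0.052, adjusted p = 4.15e-07).

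Cldn7, whose protein binds EpCAM at the membrane of epithelial cells (ENSMUSG00000018569.8, chr11:69964779-69967885, plus strand), had 8.74 and 8.86 CPM in the knockout, 3.65 and 4.04 CPM in the mutant, 7.24 and 7.71 CPM in overexpression, and 6.06 and 5.68 CPM in wild type. Again no groups overlapped, and the mutant pair was the lowest. Cldn7 rose 1.5-fold in the knockout (log2 change 0.58, SE 0.078, adjusted p = 8.42e-06) and 1.27-fold in overexpression (0.35, SE 0.079, adjusted p = 0.00105), and fell 1.53-fold in the mutant (-0.61, SE 0.085, adjusted p = 6.37e-05). All 3 claudins were thus higher in the knockout and lower in the mutant, while in overexpression Cldn6 and Cldn7 were called and Cldn4 was not.

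Tjp1 encodes ZO-1, the scaffold that ties claudins to the actin cytoskeleton (ENSMUSG00000030516.10, chr7:65296165-65527781, minus strand). It had 155.5 and 152 CPM in the knockout, 195 and 186 CPM in the mutant, 165 and 162 CPM in overexpression, and 161.0 and 160.7 CPM in wild type. The mutant pair stood above the other 6 libraries. Tjp1 rose 1.19-fold in the mutant (log2 change 0.25, SE 0.035, adjusted p = 8.06e-05). The log2 change was -0.06 in the knockout (95% interval -0.14 to 0.01, adjusted p = 0.149) and 0.02 in overexpression (-0.05 to 0.10, adjusted p = 0.61).

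**Figure D3:**
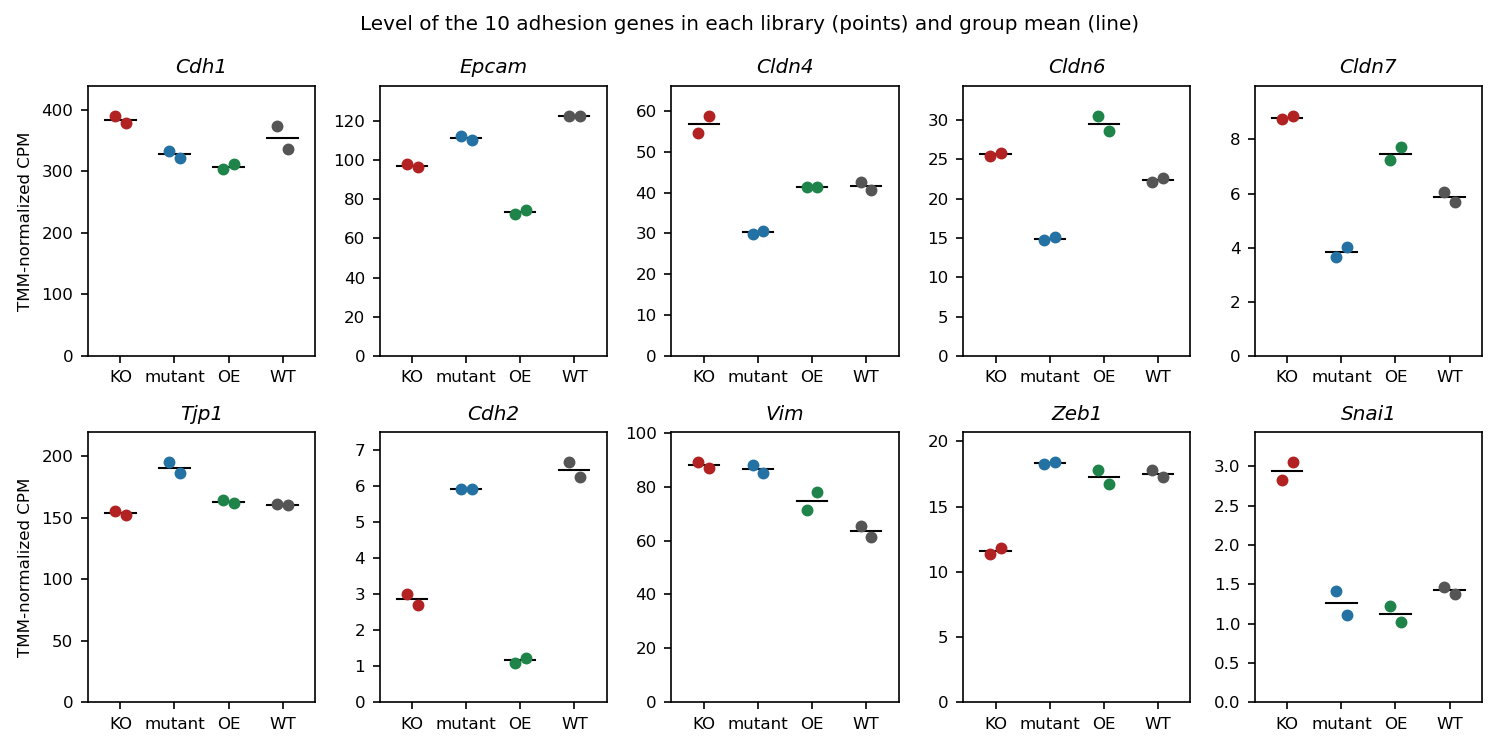
TMM-normalized CPM (linear axes from 0) of the 10 adhesion genes, with 1 panel per gene, 1 point per library and a line at the mean of the 2 libraries of each group. Cdh2 stood at 1.10 and 1.22 CPM in overexpression, against 6.65 and 6.25 CPM in wild type, and the mutant pair was the lowest for all 3 claudins.

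Cdh2, which encodes N-cadherin, the adhesion molecule of neural and mesenchymal cells, had the largest log2 change of the 10 genes in the knockout and in overexpression (ENSMUSG00000024304.10, chr18:16588877-16809246, minus strand). It had 3.005 and 2.71 CPM in the knockout, 5.91 and 5.90 CPM in the mutant, 1.10 and 1.22 CPM in overexpression, and 6.65 and 6.25 CPM in wild type, from raw counts of 258 and 223, 489 and 487, 99 and 106, and 525 and 471 in the same order. Both overexpression libraries lay below the knockout pair, and both of those below the mutant and wild-type libraries. Cdh2 fell 5.55-fold in overexpression (log2 change -2.47, SE 0.11, adjusted p = 3.88e-12) and 2.26-fold in the knockout (-1.17, SE 0.097, adjusted p = 2.87e-08). In the mutant its log2 change was -0.13 (95% interval -0.32 to 0.06, adjusted p = 0.401). Of 8 neural markers, 7 were at 1 CPM or more in each group. The other, Dcx, had 20 and 18 counts in the knockout, 2 and 0 in the mutant, 0 in both overexpression libraries, and 1 and 0 in wild type. Their summed level was 179 CPM in the knockout, 158 to 172 CPM in the mutant, 184 to 185 CPM in overexpression, and 219 CPM in wild type. Stmn2 was at 4.15 and 3.9 CPM in the mutant and 5.68 and 6.47 CPM in overexpression, against 51 and 54 CPM in wild type. In overexpression Pax6 and Map2 also lay below both wild-type libraries, but Sox1, Tubb3 and Ncam1 lay above them. In the knockout Sox1, Pax6, Nes, Tubb3, Map2 and Stmn2 lay below both wild-type libraries, and Ncam1 and Dcx lay above them. The part of these markers in the result on Cdh2 was not tested.

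Vim encodes vimentin, the intermediate filament of mesenchymal cells that cultured stem cells also make (ENSMUSG00000026728.5, chr2:13573927-13582826, plus strand). It had 88.9 and 87.0 CPM in the knockout, 87.9 and 85.0 CPM in the mutant, 71.1 and 78.1 CPM in overexpression, and 65.5 and 61.2 CPM in wild type. Both wild-type libraries were the lowest, and the knockout and mutant pairs overlapped. Vim rose in each altered group, by 1.39-fold in the knockout (log2 change 0.47, SE 0.046, adjusted p = 2.39e-07), 1.36-fold in the mutant (0.45, SE 0.046, adjusted p = 2.65e-06) and 1.18-fold in overexpression (0.24, SE 0.046, adjusted p = 0.000325). Of 8 fibroblast markers, 3 were at 1 CPM or more in the knockout, 2 in the mutant, 3 in overexpression and 2 in wild type. Their summed level was 8.62 to 9.37 CPM in the knockout, 5.25 to 5.55 CPM in the mutant, 7.76 to 8.38 CPM in overexpression, and 4.93 to 5.29 CPM in wild type. The fibroblast markers Dcn, Lum and Postn were under 3 counts in every library, with Dcn, Lum and Postn at 0 in both mutant libraries, Dcn and Lum in both overexpression libraries and Lum in both wild-type libraries.

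Zeb1 encodes a zinc-finger homeodomain repressor of Cdh1 (ENSMUSG00000024238.9, chr18:5591860-5775467, plus strand). Its exons share 198 bases with Gm10125 on the opposite strand. Zeb1 had 11.4 and 11.9 CPM in the knockout, 18.2 and 18.4 CPM in the mutant, 17.8 and 16.8 CPM in overexpression, and 17.8 and 17.2 CPM in wild type. The knockout pair lay below the other 6 libraries. Zeb1 fell 1.51-fold in the knockout (log2 change -0.59, SE 0.056, adjusted p = 1.61e-07). Its log2 change was 0.06 in the mutant (95% interval -0.05 to 0.18, adjusted p = 0.496) and -0.02 in overexpression (-0.13 to 0.10, adjusted p = 0.799).

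Snai1 encodes Snail, a zinc-finger repressor that binds E-boxes of Cdh1 (ENSMUSG00000042821.7, chr2:167538195-167542814, plus strand). It had 2.83 and 3.05 CPM in the knockout, 1.42 and 1.12 CPM in the mutant, 1.23 and 1.03 CPM in overexpression, and 1.47 and 1.38 CPM in wild type. Its raw counts were 243 and 251 in the knockout libraries, 117 and 92 in those of the mutant, 110 and 89 in overexpression, and 116 and 104 in wild type. The knockout pair lay above the other 6 libraries, which lay between 1.03 and 1.47 CPM. Snai1 rose 2.06-fold in the knockout (log2 change 1.04, SE 0.15, adjusted p = 1.97e-05). Its log2 change was -0.17 in the mutant (95% interval -0.52 to 0.18, adjusted p = 0.554) and -0.34 in overexpression (-0.69 to 0.01, adjusted p = 0.0953). In the knockout these 2 repressors moved in opposite directions. Of the 5 genes shown with an E-box, Cldn4, Cldn6, Cldn7 and Snai1 were higher there and Epcam was lower. Of all tested genes, 24.2% were called higher and 20.9% lower in the knockout. Among the searched genes with no match, Vim was higher there and Tjp1 was not called. In the mutant Epcam, Cldn4, Cldn6 and Cldn7 were lower, while neither Snai1 nor Zeb1 was called. Tjp1 and Vim, with no match, were higher in the mutant. Of all tested genes, 8.32% were called higher and 7.69% lower there. In overexpression Cldn6, Cldn7 and Vim were higher and Epcam was lower, while Cldn4, Tjp1, Snai1 and Zeb1 were not called. There 27.7% of all tested genes were called higher and 27.2% lower. A part of the E-boxes in these changes was not tested. Of 8 mesoderm markers, 1 was at 1 CPM or more in the knockout, 1 in the mutant, 2 in overexpression and 1 in wild type, with summed levels of 4.46 to 4.64, 5.37 to 5.69, 6.10 to 6.23 and 5.32 to 5.73 CPM in the same order. Eomes, at 2.42 to 3.78 CPM over the libraries, was most of these sums and is also among the trophoblast markers.

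The altered groups were also compared with each other, in the same model of all 4 groups. The knockout differed from the mutant in 9 of 10 genes, 5 higher and 4 lower, where 45.7% of all genes were called (24.4% higher and 21.3% lower). The libraries of these groups did not overlap for 9 genes (71.4% of all genes). The claudins differed in the same direction, with Cldn7 higher in the knockout by 2.29-fold (log2 difference 1.19, adjusted p = 2.22e-09), Cldn4 by 1.87-fold (0.91, adjusted p = 5.14e-11) and Cldn6 by 1.72-fold (0.78, adjusted p = 1.31e-09). Snai1 was 2.32-fold higher in the knockout than in the mutant (1.21, adjusted p = 3.61e-06), and Zeb1 was 1.57-fold lower (-0.66, adjusted p = 3.92e-08). Cdh2 was 2.07-fold lower in the knockout (-1.05, adjusted p = 1.13e-07), and Vim was the gene that missed the threshold, with a log2 difference of 0.03 (95% interval -0.07 to 0.12, adjusted p = 0.691).

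Overexpression differed from the mutant in 7 of 10 genes, 3 higher and 4 lower, where 52.1% of all genes were called (26.7% higher and 25.4% lower). The libraries did not overlap for 9 genes (74.5% of all genes). Cdh2 was 5.08-fold lower in overexpression (log2 difference -2.35, adjusted p = 1.4e-11) and Epcam 1.52-fold lower (-0.60, adjusted p = 2.14e-10). Cldn6 was 1.98-fold higher (0.99, adjusted p = 4.42e-11), Cldn7 1.94-fold higher (0.96, adjusted p = 3.04e-08) and Cldn4 1.37-fold higher (0.45, adjusted p = 2.98e-07). Cdh1 missed the threshold, with a log2 difference of -0.09 (adjusted p = 0.0892), as did Zeb1 (-0.08, adjusted p = 0.219) and Snai1 (-0.17, adjusted p = 0.427).

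The knockout differed from overexpression in all 10 genes, 7 higher and 3 lower, where 54.8% of all genes were called (27.5% higher and 27.2% lower). The libraries did not overlap for 10 genes (78.7% of all genes). Snai1 was 2.61-fold higher in the knockout (log2 difference 1.38, adjusted p = 5.31e-07) and Cdh2 2.46-fold higher (1.30, adjusted p = 5.19e-08), while Zeb1 was 1.49-fold lower (-0.57, adjusted p = 1.17e-07). The calls of Cldn7 (0.24, adjusted p = 0.0132) and Tjp1 (-0.09, adjusted p = 0.0438) ended under DESeq2 (adjusted p = 0.0615 and 0.0727). They also ended without either knockout library and without overexpression replicate 1, with adjusted p-values over all alternatives of 0.00453 to 0.13 for Cldn7 and 0.00391 to 0.248 for Tjp1. Tjp1 lost its call as well without overexpression replicate 2 (adjusted p = 0.0613).

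Other genes of the same structures were followed in lists written from general knowledge, and the counts below set each list beside the 45.1%, 16.0% and 54.8% of all genes called. The cytoplasmic and nectin partners of the adherens junction number 14. In the knockout 4 were higher and 3 lower, among them Ctnnb1, which encodes β-catenin, at 1264 ± 12.5 CPM in the knockout against 1036 ± 27.2 CPM in wild type (SD, n = 2 each; 1.22-fold, adjusted p = 2.47e-06). In the mutant 6 were higher and none lower, among them Jup, which encodes plakoglobin, at 151 ± 1.65 CPM in the mutant against 127 ± 8.56 CPM in wild type (1.18-fold, adjusted p = 0.000511). Of the others, Ctnnd1 lost its mutant call without mutant replicate 1 (log2 change 0.17) and Nectin2 without wild-type replicate 2 (0.13). Nectin1 lost its call without mutant replicate 1 (0.45) and without mutant replicate 2 (0.40). In overexpression 7 were higher and 5 lower, with Ctnnd1, which encodes p120-catenin, 1.64-fold higher (adjusted p = 3.05e-09) and the adhesion receptor gene Nectin3 1.61-fold lower (adjusted p = 3.79e-10). In the knockout Nectin3 was 1.14-fold higher (adjusted p = 0.00145).

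Of 12 tested cadherins other than the 2 described above, 7 were higher and 3 lower in the knockout, with a median log2 change of 0.45. Cdh3, which encodes P-cadherin, had 48.9 ± 0.159 CPM in the knockout against 25.2 ± 1.36 CPM in wild type (SD, n = 2 each; 1.94-fold, adjusted p = 5.9e-11). Cdh9 was 3.78-fold lower (adjusted p = 3.02e-07), at 0.501 CPM in the knockout and 1.89 CPM in wild type. With genes under 1 CPM left out, and under DESeq2, 6 in place of 10 cadherins were called. In overexpression 4 were higher and 4 lower, with Cdh24 1.72-fold higher (adjusted p = 2.53e-07) and Cdh9 5.84-fold lower (adjusted p = 9.85e-09). In the mutant Cdh4 was higher, and Cdh11 and Cdh13 were lower, and 1 of these 3 calls (Cdh11 was named after its values were seen) was left without wild-type replicate 2, without mutant replicate 1 and under DESeq2. The call of Cdh13 in the mutant (log2 change -0.65, adjusted p = 0.0132) ended without wild-type replicate 1 as well (adjusted p = 0.0551). In the knockout Cdh11 and Cdh13 were called higher (1.99-fold and 1.71-fold, adjusted p = 0.0139 and 0.000438).

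Of 18 tight junction genes, 7 were higher and 5 lower in the knockout, 2 higher (Jam2, and Cxadr, named here after its value was seen) and 3 lower (F11r, Cgn and Patj) in the mutant, and 6 higher and 9 lower in overexpression. The call of Cgn in the mutant (log2 change -0.24, adjusted p = 0.00736) ended without wild-type replicate 2 (adjusted p = 0.102) and without mutant replicate 2 (adjusted p = 0.054). Cxadr, which encodes the coxsackievirus and adenovirus receptor, a junction protein, rose 1.79-fold in the knockout (adjusted p = 3.66e-11). Jam2, a junctional adhesion molecule gene, rose 1.29-fold in the mutant (adjusted p = 5.44e-07) and 1.7-fold in overexpression (adjusted p = 2.51e-12). F11r, which encodes JAM-A, fell 1.66-fold (adjusted p = 3.74e-11) and Ocln, which encodes occludin, 1.59-fold (adjusted p = 1.17e-06) in overexpression. In the knockout both were 1.16-fold higher (adjusted p = 0.000212 for F11r and 0.0226 for Ocln). Of 8 tested claudins other than the 3 described above, Cldn10 was higher and Cldn5 and Cldn15 lower in the knockout, Cldn1 was lower in the mutant, and 3 were higher and 3 lower in overexpression. These 4 genes were named after their values were seen, and all were under 1 CPM. Cldn12, at 42.8 CPM in overexpression and 47.9 CPM in wild type, was the one called gene of these over 2 CPM in a group (1.12-fold lower, adjusted p = 0.00196). The knockout count was 1 in place of 3 without wild-type replicate 2, without knockout replicate 2 and under DESeq2. The mutant count was 0 in place of 1 without wild-type replicate 1, without mutant replicate 1 and under DESeq2, and 2 without mutant replicate 2. With genes under 1 CPM left out, 0 were called in the knockout and 1 in place of 6 in overexpression.

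Of 10 tested desmosome genes, 4 were higher and 4 lower in the knockout, 1 higher (Dsg3, under 1 CPM and named after its value was seen) and 3 lower in the mutant, and 4 higher and 5 lower in overexpression. With no filter on low counts, 7 in place of 4 were called in the mutant. Perp, which encodes a desmosomal membrane protein, fell to 38.3 ± 0.606 CPM in the knockout, 57.6 ± 0.667 CPM in the mutant and 38.3 ± 2.07 CPM in overexpression, against 79.2 ± 4.62 CPM in wild type (SD, n = 2 each; adjusted p = 1.44e-11, 1.96e-06 and 4.83e-12 in the same order). Dsg2, which encodes a desmosomal cadherin, rose 1.53-fold in the knockout (adjusted p = 0.00902) and 2.1-fold in overexpression (adjusted p = 0.000617).

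Epithelial regulators and proteases were mostly higher in the knockout and mostly lower in the mutant and in overexpression. Of 15, 9 were higher and 4 lower in the knockout (median log2 change 0.29), 2 higher and 8 lower in the mutant (-0.16), and 3 higher and 9 lower in overexpression (-0.56). Esrp1, which encodes an epithelial splicing regulator, had 41.8 ± 0.848 CPM in the knockout and 6.28 ± 0.381 CPM in overexpression, against 26.2 ± 0.848 CPM in wild type (SD, n = 2 each). It rose 1.6-fold in the knockout (adjusted p = 7.87e-09) and fell 4.18-fold in overexpression (adjusted p = 1.25e-14). Spint1, which encodes a membrane inhibitor of serine proteases, had 68.6 CPM in the knockout, 56.9 CPM in the mutant and 171 CPM in overexpression, against 44.5 CPM in wild type, and was called higher in each (adjusted p = 7.95e-10, 5.44e-06 and 1.82e-16 in the same order). Cd24a, which encodes a surface sialoglycoprotein, fell 1.41-fold in the mutant (adjusted p = 4.61e-06) and 3.7-fold in overexpression (adjusted p = 7.97e-14), and was 1.42-fold higher in the knockout (adjusted p = 5.67e-07). Grhl2, which encodes an activator of Cdh1 and claudin genes and was singled out after its values were seen, fell 3.08-fold in overexpression (14 CPM, against 43.2 CPM in wild type, adjusted p = 1.66e-13). Its log2 change was 0.09 in the knockout (adjusted p = 0.159) and -0.16 in the mutant (adjusted p = 0.0497). In overexpression Cdh1 was lower, Cldn6 and Cldn7 were higher and Cldn4 was not called. A part of Grhl2 in these changes was not tested. Without wild-type replicate 1, the mutant count was 6 in place of 10.

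**Figure D4:**
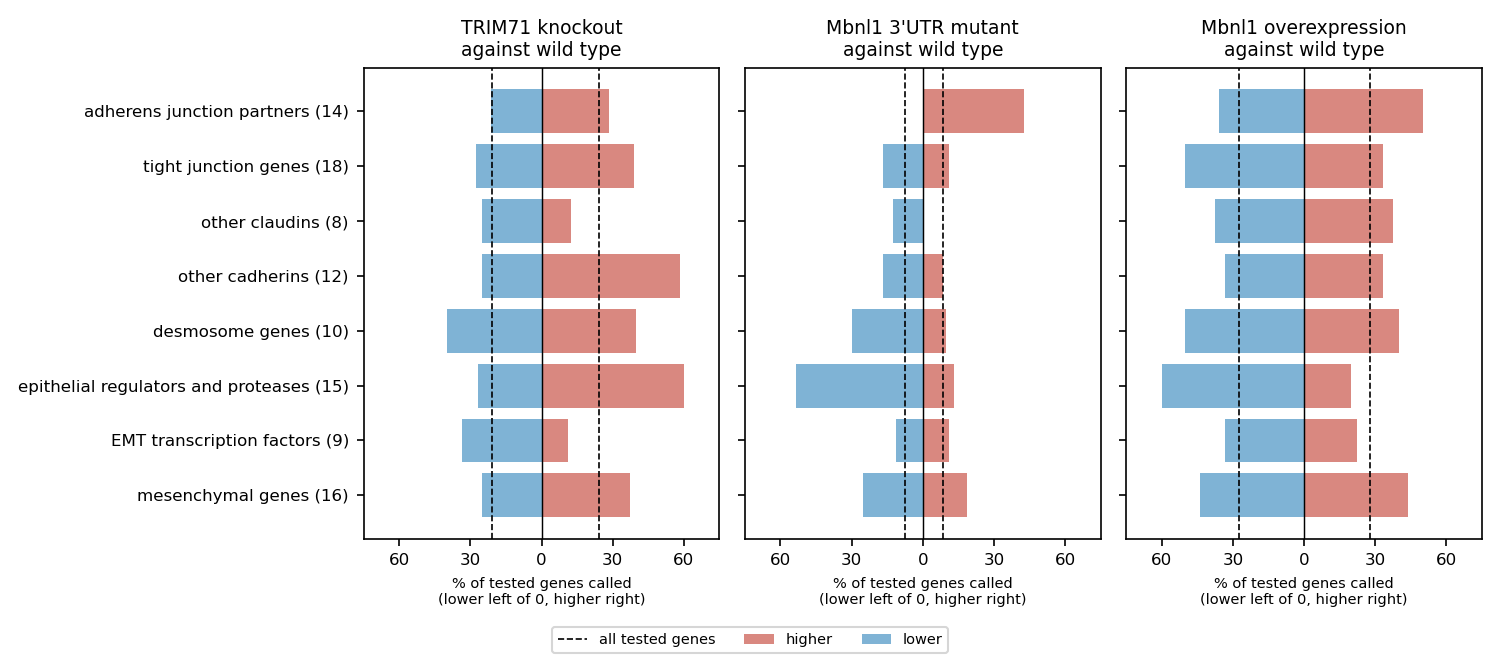
Share of the tested genes of each list called higher (right of 0) or lower (left of 0) in each altered group relative to wild type, in percent, with the number tested in brackets and dashed lines at the shares of all tested genes. The epithelial regulators and proteases leaned to the higher side in the knockout (9 of 15) and to the lower side in overexpression (9 of 15).

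Of 9 tested transcription factors of the epithelial-mesenchymal transition other than Zeb1 and Snai1, 1 was higher and 3 lower in the knockout, 1 higher and 1 lower in the mutant, and 2 higher and 3 lower in overexpression. Twist1, which encodes a basic helix-loop-helix factor, fell 1.76-fold in the knockout (1.01 CPM, against 1.78 CPM in wild type, adjusted p = 0.000447) and 1.53-fold in overexpression (adjusted p = 0.00294). Zeb2, which encodes the relative of Zeb1, fell 2.67-fold in overexpression (0.768 CPM, against 2.05 CPM in wild type, adjusted p = 1.33e-05). In the knockout Zeb2 was 1.55-fold lower (adjusted p = 0.0117), a call that ended without wild-type replicate 2 and without either knockout library. Tcf4, which encodes an E-protein, rose 1.38-fold in the knockout (adjusted p = 4.72e-08) and 1.2-fold in the mutant (adjusted p = 0.000208). Snai3, a further Snail gene, was 1.47-fold lower in the mutant (adjusted p = 0.00354) and 1.38-fold lower in the knockout (adjusted p = 0.00411). The knockout's call of Snai3 ended without knockout replicate 1 (log2 change -0.37). The overexpression count was 3 in place of 5 without wild-type replicate 2, without overexpression replicate 1 and with genes under 1 CPM left out.

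Of 16 tested mesenchymal genes other than Cdh2 and Vim, 6 were higher and 4 lower in the knockout, 3 higher and 4 lower in the mutant, and 7 higher and 7 lower in overexpression. Fn1, which encodes fibronectin, fell to 392 ± 18.6 CPM in the knockout, against 599 ± 45.4 CPM in wild type (SD, n = 2 each; 1.53-fold, adjusted p = 1.19e-07). Tagln, which encodes the actin-binding protein transgelin, fell to 1.73 ± 0.149 CPM in the mutant and 1.71 ± 0.142 CPM in overexpression, against 9.90 ± 1.03 CPM in wild type (5.73-fold and 5.8-fold, adjusted p = 2.58e-11 and 8.25e-13). In the knockout Tagln was higher, at 12.7 ± 0.204 CPM (1.28-fold, adjusted p = 0.00139). Sparc, which encodes a matrix glycoprotein, rose 1.32-fold in the mutant (adjusted p = 3.7e-07) and 1.48-fold in overexpression (adjusted p = 3.79e-10), but fell 1.14-fold in knockout libraries (adjusted p = 0.000351). The integrin gene Itgb3 rose 2.43-fold in overexpression (adjusted p = 4.34e-08). It also rose 1.56-fold in the knockout (adjusted p = 0.00033) and 1.44-fold in the mutant (adjusted p = 0.00631). The mutant's call of Itgb3 ended without wild-type replicate 1 (log2 change 0.46). Col1a1, a collagen gene, rose 2.31-fold in the knockout at a low level (1.91 CPM, against 0.826 CPM in wild type, adjusted p = 0.000126).

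For the 7 adhesion genes whose group means spanned at least 0.5 on the log2 scale, the genes with the most similar pattern were found by the root-mean-square distance of centred log2 CPM over the 8 libraries. Cdh2 lay nearest to Gap43 (distance 0.15), which encodes a neuronal growth protein and had 7.45 CPM in the knockout, 12.9 CPM in the mutant, 2.45 CPM in overexpression and 15.5 CPM in wild type. Epcam lay nearest to G2e3 (0.043), Cldn4 to Selenbp1 (0.081), Cldn6 to Rin1 (0.06) and Cldn7 to Ntpcr (0.088). Zeb1 lay nearest to Jag1 (0.05), which encodes a Notch ligand and had 16.2 CPM in the knockout, 24.5 CPM in the mutant, 22.7 CPM in overexpression and 22.4 CPM in wild type. Snai1 lay nearest to Gstt1 (0.089), at 5.36 CPM in the knockout, 1.97 CPM in the mutant, 1.88 CPM in overexpression and 2.35 CPM in wild type. Each nearest gene was the closest of 12707, so a small distance follows in part from the number searched. Cdh1, Tjp1 and Vim spanned 0.32, 0.31 and 0.47 and were left out.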

How the data were processed

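Total RNA of 8 libraries was sequenced as 75 nt stranded paired-end reads, per the labels' protocols. Alignment was to mm10 by STAR 2.5.0, per the submitters' processing notes. The deposited files hold the authors' raw counts per gene. The annotation release and the strand used in counting were not given in the sources used here. In a check of strand, genes inside an abundant host gene had a median of 0.3928 counts per kb on the opposite strand (209 genes) and 34.67 on the same strand (124 genes).

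Identifiers without version were matched to GENCODE M21, and 42462 of 43346 matched. The analysis used edgeR 4.0.16 with limma 3.58.1 in R 4.3.3. Its filterByExpr step (minimum count 10, total 15) kept 18055 of 27979 genes with a count. TMM-scaled counts of all 4 groups entered 1 robust quasi-likelihood model (4 residual degrees of freedom, 4.172% biological coefficient of variation). P-values were adjusted by Benjamini-Hochberg over all tested genes, with calls under 0.05. With 2 libraries against 2, an exact permutation test cannot go below p = 0.333. DESeq2 1.42.0 was an alternative.

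The 10 genes and all lists were chosen with earlier results of these data known. List genes are named by rule, at most 4 called genes per list and comparison, unless said otherwise. For some of them, calls in the other comparisons are given as well.

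Libraries of 1 group differed by more than counting error alone gives: chi-square over its degrees of freedom was 6.259 for the knockout, 23.17 for the mutant, 9.776 for overexpression and 29.36 for wild type. Gm26917, an abundant locus, took 4.456% of counts in wild-type replicate 1 and 1.997 to 2.722% in the other libraries.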

Additional observations from a re-analysis of the deposited data

How the results depend on the processing

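The 60 changes of the 10 genes were recomputed under 15 alternatives: other scalings, filters, tools and samples in the fit, a replicate block, and each library left out. Of 900 values, 869 kept their direction and their side of the threshold, 15 lost a call, 6 gained one and 10 changed sign without passing the threshold. With library size only, the overexpression changes relative to wild type were 0.05 for Cldn4 (-0.01 with TMM) and 0.04 for Zeb1 (-0.02 with TMM). Leaving out 1 library gave -0.04 to 0.03 for Cldn4 and -0.05 to 0.04 for Zeb1, and -0.33 to 0.01 for Snai1 in overexpression against the mutant. With only the 2 groups fitted, Cldn4 was at 0.00. The lost and gained calls belonged to Cdh1, Epcam, Cldn7 and Tjp1, and their cause was not tested. The call of Cdh1 in the knockout also ended when genes under 1 CPM were dropped (adjusted p = 0.0591). In the mutant Cdh1 gained a call with library size only (0.0322) and with no filter (0.0228). It also gained one between overexpression and mutant with no filter (0.0357) and without either wild-type library (0.0365 and 0.0368), in a range of 0.0357 to 0.654.

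Leaving out 1 library gave 8 to 9 of the 10 genes called for the knockout, 6 to 7 for the mutant and 6 for overexpression, all relative to wild type. Between altered groups it gave 9 for knockout against mutant, 7 to 8 for overexpression against mutant, and 8 to 10 for knockout against overexpression. Over all genes, calls in the mutant ranged from 1832 (without wild-type replicate 1) to 3303, beside 2891 with all libraries.

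Replicate numbers did not pair the libraries: replicate differences correlated at -0.034 to 0.060 between groups. A replicate block called 7951 genes for the knockout, 2744 for the mutant and 9815 for overexpression, including 9, 6 and 6 of the 10 genes. Of the 10 genes it changed the call of Tjp1 between knockout and overexpression (0.0528) and no other.

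The list counts were recomputed under alternatives chosen after seeing the data: 341 of 360 stayed within 1.5 times, and 19 did not. Snai1, at 1 to 3 CPM, had SEs of 0.15 to 0.17 on the log2 scale relative to wild type. With 2 libraries per group, its log2 change of -0.34 in overexpression (95% interval -0.69 to 0.01) was not called. Changes of that size in Snai1 could therefore be missed.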

Other observations

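Integrins, the receptors that bind cells to the matrix below them, were not in the lists above apart from 2 genes and were looked at after values had been seen. Of 27 integrin genes, 20 were tested. In the knockout 10 were higher and 7 lower relative to wild type, in the mutant 4 were higher and 2 lower, and in overexpression 9 were higher and 5 lower. Of all tested genes, the share called was 45.1% for the knockout, 16.0% for the mutant and 54.8% for overexpression. Itga6, which encodes the laminin receptor subunit α6, stood at 259 ± 0.0474 CPM in the knockout, 269 ± 2.02 CPM in the mutant and 470 ± 6.51 CPM in overexpression, against 204 ± 1.74 CPM in wild type (SD, n = 2 each). Its log2 changes were 0.34, 0.39 and 1.20 in the same order (edgeR adjusted p = 1.9e-07, 2.03e-07 and 8.65e-15). Integrin α6 pairs with the β subunits encoded by Itgb1 and Itgb4. Itgb1 was at 382 CPM in the knockout, 453 CPM in the mutant and 340 CPM in overexpression, against 439 CPM in wild type, and fell in the knockout and overexpression (log2 changes -0.20 and -0.37). Itgb4 was at 5.38 CPM in the knockout, 8.66 CPM in the mutant and 12.1 CPM in overexpression, against 6.97 CPM in wild type. It fell in the knockout (log2 change -0.37) and rose in the mutant and overexpression (0.31 and 0.80). Itgb5, which encodes a subunit of a vitronectin receptor, fell in each altered group, with 54.1 CPM in the knockout, 48.2 CPM in the mutant and 37.8 CPM in overexpression, against 61.1 CPM in wild type.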
